A study of Mus musculus with 6 samples.

Results

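miR-378a is a microRNA (miRNA) hairpin whose 2 strands, miR-378a-3p and miR-378a-5p, can each be loaded into the silencing complex. Its arms were taken by name, as the rows mmu-miR-378a-3p and mmu-miR-378a-5p, 2 of the 707 mature mouse miRNA names of the count table. In the GENCODE annotation of GRCm38 the hairpin lay at chr18:61397835-61397900 on the minus strand, within the first intron of all 3 annotated transcripts of Ppargc1b, its host gene on the same strand. The authors' build was mm9, so these positions place the gene and are not those of the authors' reads. The arms were followed in exosomes, small vesicles that cells release, collected from supernatants of macrophages grown from mouse bone marrow. A total of 3 samples had the Roquin-1 san:san genotype and 3 were wild type (WT), and all 6 were on the C57BL/6 strain. The san allele (sanroque) alters Roquin-1, a protein that binds stem-loops in messenger RNAs and speeds their decay. No sample was labelled as given IL-4 or any other agent. The labels name no animal age and do not say whether replicates were separate mice or cultures, so the spread behind the p-values could be technical rather than biological.

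Ppargc1b encodes PGC-1beta, a coactivator of genes for mitochondrial respiration and lipid use. In mouse liver and muscle the 3p arm represses carnitine O-acetyltransferase and the 5p arm represses MED13, a Mediator subunit that acts with nuclear receptors. In mouse macrophages IL-4 raises miR-378a-3p, which restrains Akt signalling, and PGC-1beta takes part in the oxidative metabolism of IL-4-activated macrophages. The level of the Ppargc1b messenger RNA was not analysed here.

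The miRNAs that serve as comparisons are shown by their mature sequences from RefSeq (GRCm38.p6), with the seed, bases 2 to 8 that pair with target messages, in capitals. The first 5 are members of the IL-4, brown fat and lipid lists that passed the test of level, and the last 2 had levels across libraries like those of the 3p and the 5p arm.
let-7c-5p: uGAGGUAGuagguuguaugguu
miR-342-3p: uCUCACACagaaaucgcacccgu
miR-223-3p: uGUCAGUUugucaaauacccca
miR-196a-5p: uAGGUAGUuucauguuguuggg
miR-33-5p: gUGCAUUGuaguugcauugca
miR-532-3p: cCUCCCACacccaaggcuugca
miR-148a-3p: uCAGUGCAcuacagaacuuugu
No 2 of these 7 share a seed. The seed of let-7c-5p was carried by 10 names of the count table, that of miR-148a-3p by 3 and that of miR-196a-5p by 2, and the other 4 seeds were each carried by 1. These counts cover the 573 of 707 names with a sequence. miR-223-3p lay at chrX:96242884-96242905 (+ strand), miR-342-3p at chr12:108658680-108658702 (+ strand), miR-33-5p at chr15:82198127-82198147 (+ strand), miR-532-3p at chrX:7248419-7248440 (- strand) and miR-148a-3p at chr6:51269829-51269850 (- strand). let-7c-5p and miR-196a-5p each have 2 copies in the sequence table.

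The san:san libraries held between 126098 and 185901 miRNA counts and the WT libraries between 12447 and 28884, so depth and genotype cannot be told apart. Levels are given as TMM-scaled CPM, counts scaled to a common library total with edgeR's TMM factors. Such relative levels cannot tell fewer vesicles of a kind from less of the miRNA in each vesicle. Macrophage and myeloid markers were present in every library, at 10.37% to 11.96% of counts in san:san and 5.21% to 6.19% in WT, and all 6 were above 0 in each genotype. Erythroid markers held 15.6% to 17.9% of san:san counts and 3.84% to 6.25% of WT counts, again with all 5 detected. Among them, miR-486a-5p and miR-486b-5p had the same counts (26183 each over san:san and 972 each over WT). The same reads may thus enter the erythroid share under both names, so it is not set against the myeloid share. Lymphocyte (1.38% to 1.92% against 0.409% to 0.492%), endothelial (3.37% to 6.96% against 1.82% to 3.69%), stromal (0.741% to 0.833% against 0.844% to 1.32%) and liver markers (0.542% to 0.758% against 0.584% to 0.782%) are given with san:san first. Epithelial markers held at most 0.0127% of san:san counts and 0.0138% of WT counts, with 4 of 5 at 0 in WT. The part of these cell types in the results was not tested. Skeletal and heart muscle, where miR-378a is abundant, left few marker counts: 34 over the san:san libraries (0.00484% to 0.00872% of counts) and 9 over the WT libraries (0% to 0.0312%). Because depths differ, the sums do not compare the genotypes, and by share both the highest and the lowest value were in WT. Of the 6 muscle markers in the table, 4 were at 0 in WT.

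miR-378a-3p, the abundant arm, was lower in san:san exosomes. It had 216, 166 and 143 counts in san:san replicates 1 to 3 and 38, 274 and 166 in WT replicates 1 to 3. Scaled for depth these were 1378, 1264 and 1482 TMM-scaled CPM in san:san, against 2674, 7694 and 6084 in WT. All 3 san:san libraries lay below all 3 WT libraries, and WT replicate 1 lay far below the other WT libraries. The arm averaged 1375 ± 109 TMM-scaled CPM in san:san and 5484 ± 2563 in WT (SD, n = 3 each), 4.11-fold lower in san:san by the fit (log2 -2.04 ± 0.29, SE, edgeR quasi-likelihood adjusted p = 3.87e-05). The change was the 49th lowest of the 254 miRNAs tested. Its rank by counts within a library was 84, 86 and 81 in san:san, against 49, 27 and 31 in WT.

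**Figure D1:**
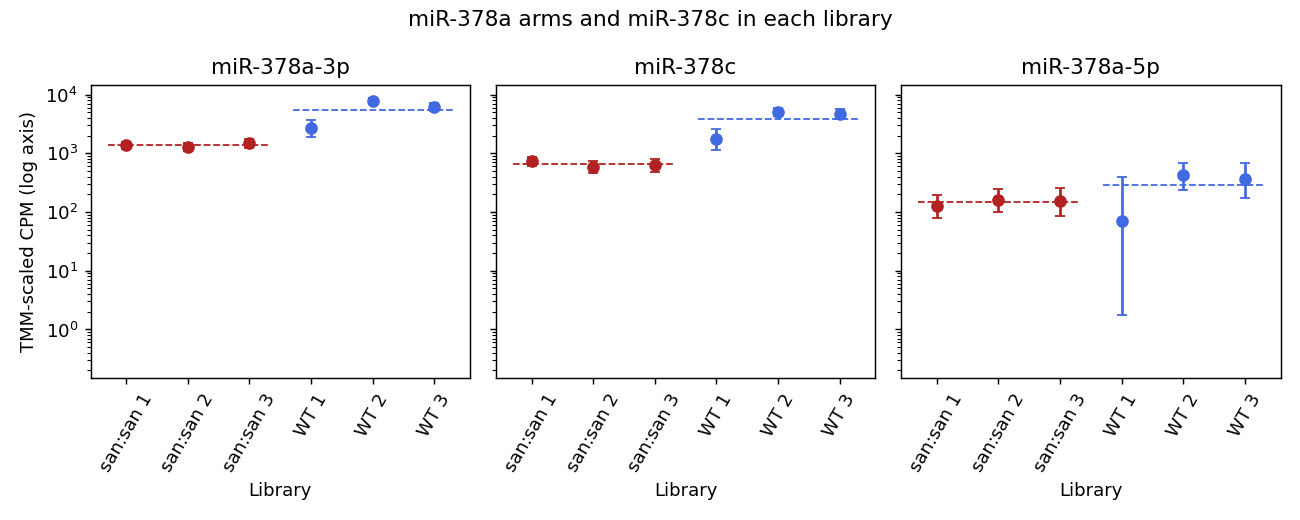
TMM-scaled CPM (log axis) of miR-378a-3p, miR-378c and miR-378a-5p in each san:san (red) and WT (blue) library, with 95% exact counting intervals as bars and the genotype mean as a dashed line. For miR-378a-3p the san:san libraries lie between 1264 and 1482 and the WT libraries between 2674 and 7694, whereas for miR-378a-5p WT replicate 1, at 70.4 with 1 count, lies below all 3 san:san libraries.

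Lower levels were common among the miRNAs. Of the 254 tested, 29.5% were called lower in san:san, 34.6% were called higher, 70.9% did not overlap between the genotypes, and 31.1% were lower without overlap. With total counts the split of calls was 49 higher and 101 lower, in place of 88 and 75 with TMM. A call for the 3p arm therefore sits against a background in which 64.2% of miRNAs were called in either direction. The median log2 change of all tested miRNAs was 0.30 under TMM, 0.04 under RLE factors and -0.29 under total counts. Measured from that median, the 3p arm stood at -2.34, -2.33 and -2.35 under these scalings. A change of scaling moves all miRNAs by nearly the same amount, so these distances could hardly differ and do not test the scaling.

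Library by library, the 3p arm was lower in san:san in each of the 9 pairings of a san:san with a WT library, by log2 values between -2.61 and -0.85. Pairings of the same replicate number gave -0.96 for replicate 1, -2.61 for replicate 2 and -2.04 for replicate 3. The smaller differences all involved WT replicate 1, the shallowest library, whose 38 counts carry a 95% exact counting interval of 1892 to 3670 TMM-scaled CPM. Counting intervals cover counting error only. Without WT replicate 1 the log2 change was -2.42 ± 0.19 (edgeR adjusted p = 1.30e-10), the largest with a library left out. The smallest was -1.83 ± 0.31 without WT replicate 2 (edgeR adjusted p = 5.93e-04). An exact two-sided permutation test over the 6 libraries gave p = 0.1 for the 3p level, the smallest that 3 against 3 allows (0.12 adjusted over the 6 such tests made).

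miR-378a-5p, the minor arm, had 20, 21 and 15 counts in san:san and 1, 15 and 10 in WT. These were 128, 160 and 155 TMM-scaled CPM in san:san, against 70.4, 421 and 366 in WT. The genotypes overlapped, because WT replicate 1 lay below every san:san library on the strength of 1 count, with an interval of 1.78 to 392 TMM-scaled CPM. The mean was 148 ± 17.5 in san:san and 286 ± 189 in WT (SD, n = 3 each). The fitted log2 change was -1.14 ± 0.48 (edgeR adjusted p = 0.0496), just inside the threshold of 0.05. The exact permutation test over the 6 libraries gave p = 0.4 for the 5p level.

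The 5p call did not hold in every setting. It was lost without san:san replicate 1 (log2 -1.05, edgeR adjusted p = 0.0837), without WT replicate 2 (-0.90, 0.255) and without WT replicate 3 (-1.05, 0.124). With all 6 libraries it was also lost when no filter on low counts was used (-1.01, edgeR adjusted p = 0.106). Without WT replicate 1 it was -1.52 (edgeR adjusted p = 0.00508). Against single WT libraries the direction split: the 3 pairings with WT replicate 1 gave log2 values of 0.86 to 1.18, and the other 6 gave -1.72 to -1.20.

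**Figure D2:**
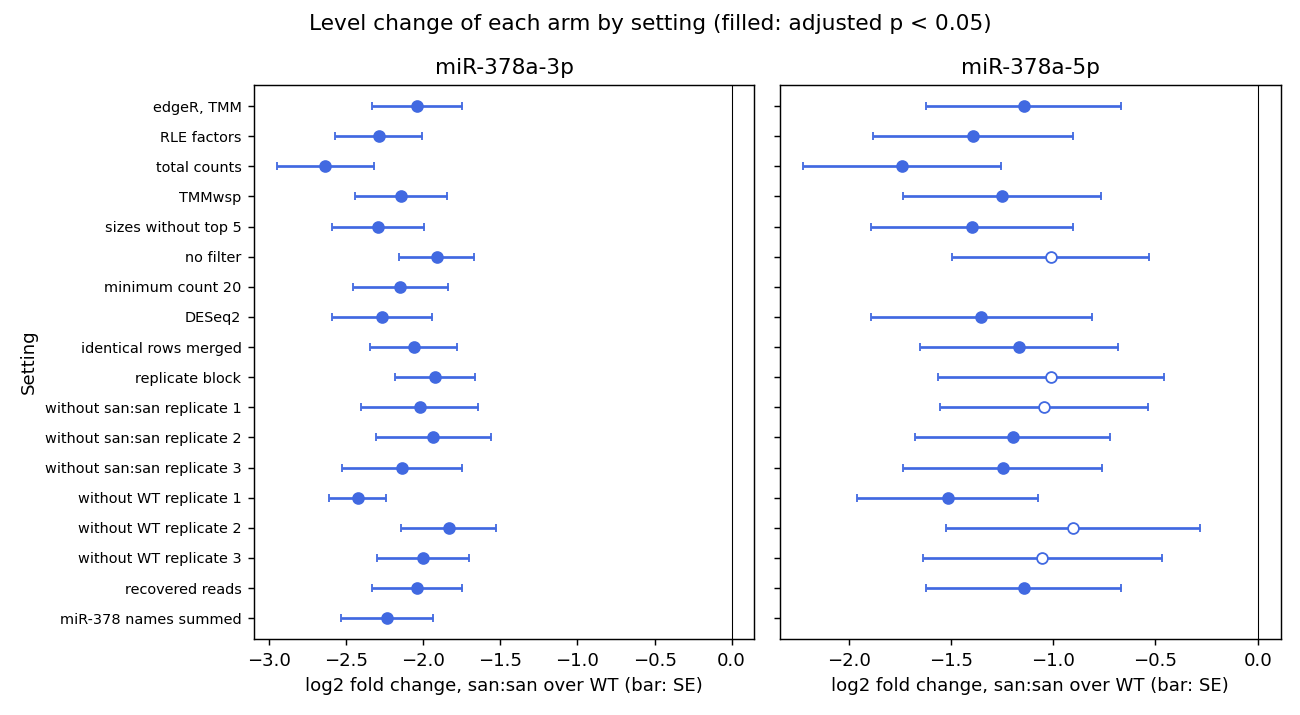
log2 fold change of miR-378a-3p (left) and miR-378a-5p (right), san:san over WT, under each setting down the page, with SE as bars and filled points for adjusted p under 0.05. The 3p values lie between -2.64 and -1.83 and all are filled, and the 5p values lie between -1.74 and -0.90 with 5 open points.

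The balance of the arms was compared within each library, where depth and scaling cancel. Any reads that the 3p arm shares with other names of the miR-378 family, described below, need not cancel. Of the counts of both arms, the 5p arm made up 8.47% (20 of 236), 11.2% (21 of 187) and 9.49% (15 of 158) in san:san replicates 1 to 3, against 2.56% (1 of 39), 5.19% (15 of 289) and 5.68% (10 of 176) in WT replicates 1 to 3. Every san:san share lay above every WT share, yet the 95% Clopper-Pearson intervals overlapped widely, at 5.25% to 12.8% in san:san replicate 1 and 2.76% to 10.2% in WT replicate 3. In WT replicate 1 the interval ran from 0.0649% to 13.5%. The 5p share averaged 9.73% ± 1.39 in san:san and 4.48% ± 1.68 in WT (SD, n = 3 each; exact two-sided permutation p = 0.1, the smallest possible here).

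**Figure D3:**
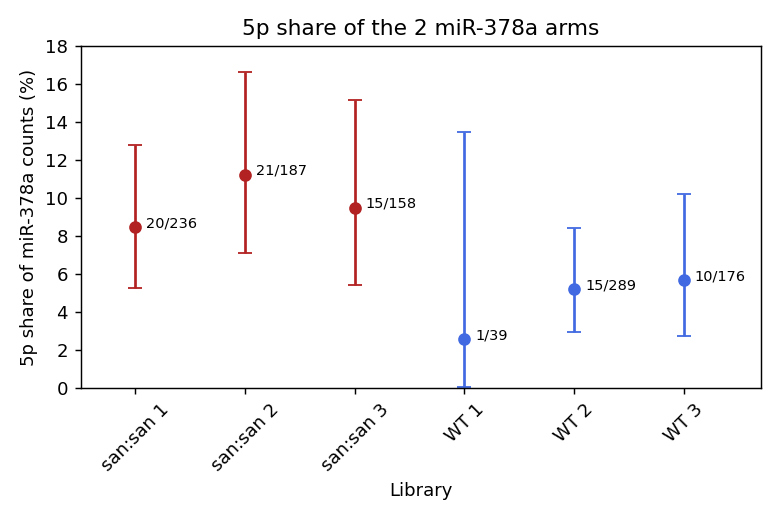
Share of the 5p arm among the counts of both miR-378a arms, in percent, for each san:san (red) and WT (blue) library, with 95% Clopper-Pearson intervals and the 5p and total counts beside each point. The san:san points lie between 8.47% and 11.2% and the WT points between 2.56% and 5.68%, with overlapping intervals.

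In counts of 3p per 5p read, the arms stood at 10.8, 7.90 and 9.53 in san:san and 38.0, 18.3 and 16.6 in WT. The 3p arm was thus the major one in all 6 libraries. The fit covered 49 hairpins whose arms summed to 20 or more counts in each library, although a single arm could be at 0. In this fit the log2 ratio of 5p to 3p for miR-378a was 1.01 ± 0.43 higher in san:san (SE, edgeR adjusted p = 0.0517). This 2.01-fold difference did not pass the threshold. With limma on the log ratios and a pseudocount in proportion to depth the log2 difference was 1.31 ± 0.40 (limma adjusted p = 0.0428). With a library left out the difference ranged from 0.89 to 1.13, with adjusted p values between 0.0364 and 0.258.

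Among the 49 hairpins, 36.7% passed the arm test, and 18.4% passed with a higher 5p share in san:san. The latter include miR-486a and miR-486b, which have the same counts, with 0 of the 3p arm over san:san and 5 over WT. They also include miR-150, with 0 and 1 counts of its 3p arm. The 5p shares of these hairpins overlapped between the genotypes. The 5p shares of the genotypes did not overlap for 42.9% of hairpins, with the san:san share above in 20.4%. miR-378a was the 33rd from the lowest difference. The 3 hairpins next above it were miR-151 (log2 1.03 ± 0.34, edgeR adjusted p = 0.00725), miR-93 (1.10 ± 1.07, 0.469) and miR-199b (1.53 ± 0.33, 4.60e-05). The 3p counts of miR-199b, 1199 over san:san and 215 over WT, were the same as those of miR-199a. Its ratio may thus rest on 3p reads of either hairpin. The 3 next below were miR-221 (0.72 ± 1.55, 0.749), miR-532 (0.66 ± 0.37, 0.172) and miR-144 (0.58 ± 0.38, 0.234). miR-151 had 750 and 1448 counts of its 5p and 3p arms in san:san and 43 and 165 in WT, and its difference, of nearly the same size, passed. The share of the minor arm was higher in san:san for 29 of 49 hairpins and lower for 20, but of those past the test it was higher in 6 and lower in 12.

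**Figure D4:**
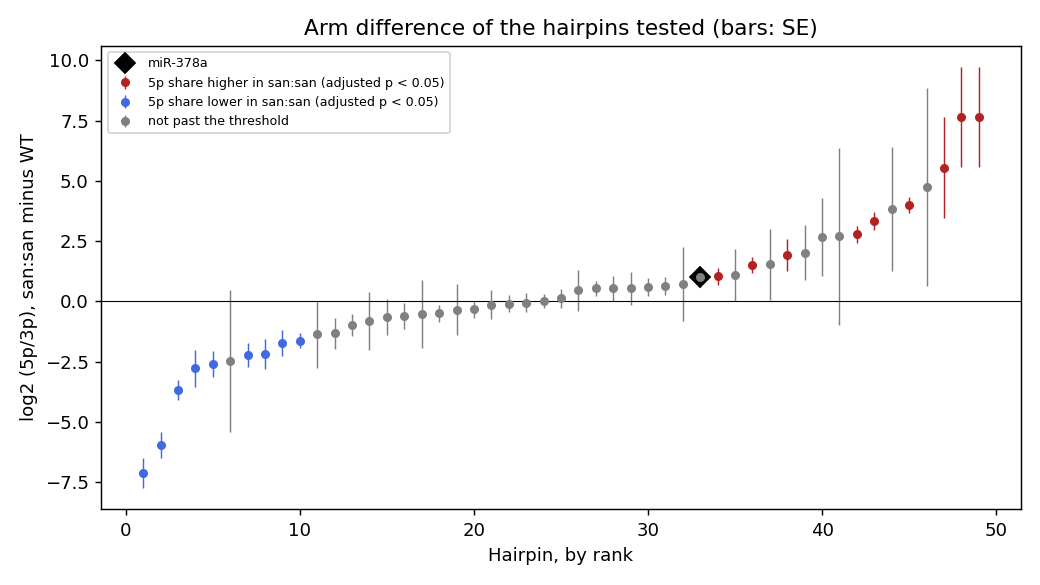
Difference of log2 5p over 3p, san:san minus WT, for the 49 hairpins tested, by rank, with SE as bars. Points in red passed with a higher 5p share in san:san, points in blue with a lower one, grey points did not pass, and the black diamond is miR-378a at 1.01, below the adjacent red point of miR-151 at 1.03.

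The count table held 3 further names of the family, miR-378b, miR-378c and miR-378d. In GENCODE their hairpins lay on other chromosomes, at chr11:88352773-88352864, chr14:46954830-46954928 and chr10:126710282-126710391 (GRCm38). In the RefSeq sequences these 3 mature miRNAs, 20, 21 and 22 bases long, differed from each other by 2 to 4 single-base edits. Reads of such near-identical names could have been split between them or counted for several, so the value of any 1 name is uncertain. Neither miR-378a arm had the same counts as another row in all 6 libraries.

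miR-378c was lower with miR-378a-3p. It had 115, 78 and 60 counts in san:san and 25, 179 and 128 in WT, or 650 ± 74.1 TMM-scaled CPM in san:san and 3825 ± 1797 in WT (SD, n = 3 each). Its log2 change was -2.61 ± 0.31 (edgeR adjusted p = 6.64e-06), a 6.09-fold lower level. miR-378c had 0.532, 0.470 and 0.420 counts per miR-378a-3p count in san:san, against 0.658, 0.653 and 0.771 in WT, with every san:san library below every WT library. This ratio was computed after the values were seen, and its exact two-sided permutation p was 0.1, the smallest possible here. miR-378b, with 7, 6 and 7 counts in san:san and 0, 3 and 5 in WT, and miR-378d, with 3, 5 and 4 in san:san and 2, 2 and 3 in WT, were too low to test. In WT replicate 1, 0 counts of miR-378b allow up to 211 TMM-scaled CPM. Summed over miR-378a-3p and the 3 other names, the log2 change was -2.24 ± 0.30 (edgeR adjusted p = 1.85e-05).

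By the Pearson correlation of log2 TMM-scaled CPM over the 6 libraries, miR-378c was the miRNA most like miR-378a-3p (r = 0.99), of 253 compared. Whether these names share reads was not tested, and the sequence of miR-378a-3p was not compared with that of miR-378c. Next in order, leaving miR-378c aside, were other miRNAs. These were miR-532-3p (r = 0.96), miR-669a-3p and miR-669o-3p (r = 0.96 each, with identical counts) and miR-1934-3p (r = 0.96). Their own log2 changes ranged from -0.59 for miR-532-3p to -4.19 for miR-1934-3p, which had 5 counts over san:san and 21 over WT. For miR-378a-5p the closest were miR-148a-3p (r = 0.94), let-7d-5p (r = 0.87), miR-331-5p (r = 0.86), miR-221-3p (r = 0.83) and miR-214-3p (r = 0.77). The 2 arms of miR-378a correlated with each other at r = 0.74. The 5p arm ranked 67th by likeness to the 3p arm, and the 3p arm ranked 7th by likeness to the 5p arm. These values describe 6 libraries that share the split by genotype and depth, and WT replicate 1 was the lowest WT library for both arms.

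miRNAs tied to IL-4 and alternative macrophage activation had members called in both directions. Of 16 names listed, 15 were in the table and 9 could be tested: 3 were lower in san:san, 2 higher and 4 did not pass. Calls thus covered 33.3% (lower) and 22.2% (higher) of the tested names, beside 29.5% and 34.6% of all 254 tested miRNAs, and nothing is read from a count so close to that background. The split was 5 lower and 1 higher with total counts, and 2 lower and 5 higher of 15 with no filter on low counts. Their median log2 change was -0.12, beside 0.30 for all 254 tested miRNAs, and 2 of the 3 lower names are the miR-378a arms themselves. The third was let-7c-5p, which favours an M2 state in mouse macrophages, at 5676 ± 254 TMM-scaled CPM in san:san and 14795 ± 1957 in WT (SD, n = 3 each; log2 -1.38 ± 0.19, edgeR adjusted p = 2.87e-05). miR-342-3p, encoded in an intron of Evl, was higher at 13972 ± 121 in san:san and 3888 ± 960 in WT (log2 1.87 ± 0.22, edgeR adjusted p = 5.91e-06). miR-223-3p, a myeloid miRNA, was also called higher (log2 0.87 ± 0.26, edgeR adjusted p = 0.00849). That call was lost with total counts (0.30, edgeR adjusted p = 0.336), with DESeq2 and without WT replicate 2 (edgeR adjusted p = 0.128). The names that did not pass were miR-99b-5p (log2 -0.12, edgeR adjusted p = 0.653), miR-125a-5p (0.21, 0.337), miR-34a-5p (0.71, 0.0993) and miR-27a-3p (-0.59, 0.0538). miR-27a-3p was called lower in each of the 5 other scalings and tools, at -0.84 with RLE factors (edgeR adjusted p = 0.0109) and -1.18 with total counts (0.00157), and in 1 of the 6 fits with a library left out. With total counts miR-99b-5p was called lower too (-0.72, edgeR adjusted p = 0.0196) and miR-125a-5p changed sign (-0.37, 0.127). miR-511-3p, which lies in an intron of the M2 marker gene Mrc1, had 9 counts over san:san and 0 over WT, and miR-132-3p had 16 and 2. Both were too low to test.

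The metabolic lists also had members called in both directions. Of 16 names tied to brown fat, all were in the table and 9 were tested, with 3 lower, 2 higher and 4 not past, and a median of 0.45. That is 33.3% lower and 22.2% higher, near the 29.5% and 34.6% of all tested miRNAs, and 2 of the 3 lower names are again the miR-378a arms. With no filter on low counts the split was 2 lower and 3 higher of 16. Besides the miR-378a arms, miR-196a-5p, which promotes brown-like fat cells in mouse white fat, was lower at 168 ± 106 TMM-scaled CPM in san:san and 4492 ± 399 in WT (SD, n = 3 each; log2 -4.70 ± 0.33, edgeR adjusted p = 6.03e-08). miR-30c-5p (log2 1.65 ± 0.23, edgeR adjusted p = 2.87e-05) and miR-93-5p (1.63 ± 0.30, 2.86e-04) were higher. These 3 calls held in the 5 other scalings and tools and with any 1 library left out. miR-193b-3p and miR-365-3p, from a cluster that supports brown fat formation, had 12 and 8 counts over san:san and 1 and 4 over WT, too low to test.

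Of 17 names tied to lipid and glucose handling, 15 were in the table and 13 were tested, with 3 lower, 2 higher and 8 not past, and a median of -0.17. Here too, 2 of the 3 lower names are the miR-378a arms themselves. The shares were 23.1% lower and 15.4% higher, beside 29.5% and 34.6% of all tested miRNAs. Under TMM 5 of 13 were thus called, beside a background of 64.2%. With RLE factors 8 of 13 were called, beside 162 of 254 miRNAs, and with total counts 8 of 13, beside 150 of 254. Because the count depends on the scaling, nothing is read from it. miR-33-5p, an intronic miRNA of Srebf2 that restrains cholesterol efflux, was lower at 59.2 ± 41.0 TMM-scaled CPM in san:san and 342 ± 121 in WT (SD, n = 3 each; log2 -2.69 ± 0.54, edgeR adjusted p = 5.92e-04), from 21 counts over san:san and 29 over WT. The higher names were miR-128-3p (log2 1.16 ± 0.29, edgeR adjusted p = 0.00317), whose call was lost with total counts (0.57, 0.107), and miR-223-3p. miR-148a-3p, the nearest in pattern to the 5p arm, stood at -1.08 ± 0.49 (edgeR adjusted p = 0.0691). It was called lower in each of the 5 other scalings and tools, at -1.34 with RLE factors (edgeR adjusted p = 0.0231) and -1.68 with total counts (0.00957), and in 2 of the 6 fits with a library left out. miR-103-3p and miR-107-3p, which act on insulin sensitivity, stood at 0.38 (0.154) and -0.17 (0.525), and miR-122-5p of liver at 0.33 (0.186), all by edgeR. With total counts 8 of the 13 were called lower, miR-107-3p among them (-0.76, edgeR adjusted p = 0.0124), and 0 were called higher, while miR-103-3p (-0.21) and miR-122-5p (-0.24) changed sign without passing.

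**Figure D5:**
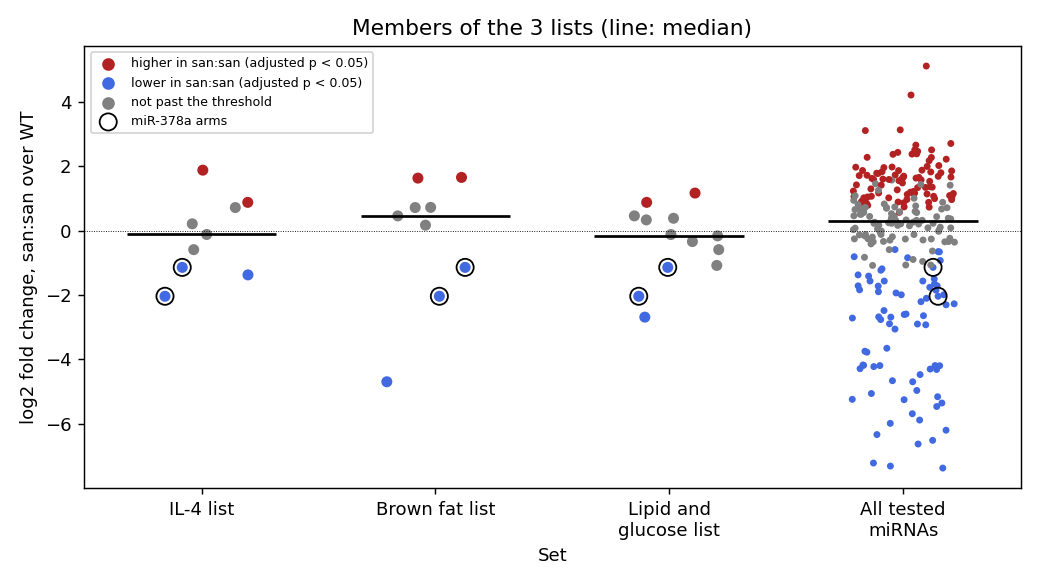
log2 fold change, san:san over WT, of the tested members of the IL-4, brown fat, and lipid and glucose lists and of all 254 tested miRNAs, with medians as lines and the miR-378a arms ringed. The medians lie at -0.12, 0.45 and -0.17 for the lists and 0.30 for all, and each list holds 3 blue points (lower) and 2 red points (higher).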

How the data were processed

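Small RNA libraries of macrophage-derived exosomes from 3 Roquin-1 san:san and 3 WT samples were compared, grouped by their titles. Trizol RNA and standard Illumina miRNA library preparation were used, per the labels' protocols, which also name a TruSeq RNA kit. The submitters' processing notes name the build mm9. No aligner, trimming step or miRNA release is given in the sources used. The authors deposited raw counts per mature miRNA and, per sample, a scaled signal headed tpm. Its sums of 1056890 to 1082573 exceed those of TPM. All of its values (100%) were whole multiples, within 0.1 reads, of the value of 1 read, which was itself taken from the raw counts. The recovered reads differed from the count table for 1 miRNA in WT replicate 2. They gave the same 163 calls, which is therefore no independent check. The number of columns from outside the series was 0.

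Levels were tested with edgeR 4.0.16 (R 4.3.3): filterByExpr at a minimum count of 10, TMM, robust quasi-likelihood, a single genotype term and p-values adjusted by Benjamini-Hochberg over 254 miRNAs. CPM use the summed counts of these 254. Arms were tested in edgeR with library, arm and arm-by-genotype terms over 49 hairpins whose arms summed to 20 or more counts in each library. SEs are the log2 change divided by the square root of F. limma 3.58.1 and DESeq2 1.42.0 gave alternatives.

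No 2 replicates agreed within sampling noise (chi-square). The miR-378a arms, the lists and the tests were chosen with earlier results of these data known. Besides the arms, the text names the other miR-378 names, the 5 miRNAs most correlated with each arm (prior count 2), the 3 hairpins on either side in the arm test, and list members that passed. List members that did not pass or could not be tested were named after their values were seen.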

Additional observations from a re-analysis of the deposited data

How the results depend on the processing

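The lower level of miR-378a-3p kept its direction and its call in all 17 alternatives, with log2 values between -2.64 (total counts) and -1.83 (without WT replicate 2). Among these, the recovered reads all but repeat the raw counts and are no independent check. miR-378a-5p kept its direction but not its call with no filter (-1.01, edgeR adjusted p = 0.106) or with a replicate block (-1.01, 0.112). With 1 library left out it ranged from -1.52 to -0.90, and at a minimum count of 20 it could not be tested. The arm difference of 1.01 passed with limma and a pseudocount in proportion to depth (1.31), limma and a fixed pseudocount of 1 (0.95), 10 counts of each arm in each genotype (1.01) and, chosen after seeing the data, miR-378b, miR-378c and miR-378d added to the 3p count (1.18). It did not pass at a minimum of 10 counts over both arms (1.00, edgeR adjusted p = 0.0847). With 1 library left out it ranged from 0.89 to 1.13, passing without WT replicate 3. With limma and the replicate block it was 1.31 (limma adjusted p = 0.0660). Hairpins past the arm test numbered 18, but 11 with limma and the replicate block. Calls on the lipid and glucose list numbered 5, but 8 with RLE factors, total counts or sizes that left out the top 5 miRNAs, and between 3 and 7 with a library left out. The causes were not tested. The counts of called miRNAs and of IL-4 and brown fat members stayed within 1.5 times in these alternatives, though their split by direction moved. The share of miRNAs called fell with no filter on low counts, to 207 of 707 in place of 163 of 254. Whether replicate numbers pair the samples could not be decided. Deviations of same-numbered libraries correlated at 0.103, -0.0795 and 0.258, beside -0.212 to 0.154 for libraries of unlike number, all from 3 libraries per genotype. The replicate block gave 161 calls in place of 163. Over the WT libraries the 5p arm had 26 counts, and miR-378b and miR-378d had 8 and 7 and were not tested.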
